A study of Mus musculus with 12 samples.

Results

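The 10 genes described here mark hepatic stellate cells or belong to the collagen matrix of the liver. Pdgfra and Pdgfrb encode receptors for platelet-derived growth factor (PDGF), and Lrat the enzyme that esterifies vitamin A. Reln encodes the secreted glycoprotein reelin, Dcn the collagen-binding proteoglycan decorin and Des the intermediate filament protein desmin. Col1a1, Col1a2 and Col3a1 encode chains of fibrillar collagens I and III, and Timp1 a secreted inhibitor of matrix metalloproteinases. They were taken by symbol from a deposited table of 54532 genes. All 10 were among the 11451 genes that reached 1 FPKM in at least 3 of 12 libraries and were tested.

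Poly(A) RNA of whole liver from wild-type C57/BL6J mice was sequenced. There were 4 groups of 3 libraries each, namely livers of sham-operated mice and livers taken 3, 6 and 12 h after removal of 70% of the liver (partial hepatectomy), the operation after which the remaining lobes grow back. The comparisons ask how expression changes while the liver prepares to regenerate. No hour is given in the labels for the sham livers, and 6 h replicate 3 has a title of 6 h but a time tag of 7 h. Whether the 3 libraries of each group stem from different mice is not stated, and the p-values then measure only a spread between libraries that may be technical.

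Stellate cells lie between hepatocytes and the sinusoidal endothelium and store vitamin A as retinyl esters in lipid droplets. In injured liver they can lose these stores, divide in response to PDGF and become contractile cells that secrete fibrillar collagen. They are also a known source of hepatocyte growth factor in liver.

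Library totals lay between 15573405 and 17199639 counts. In whole liver, fewer cells of a type and less RNA per cell cannot be told apart. The summed level of 11 hepatocyte markers was 37000 to 63143 FPKM in every library, whereas the 10 genes together reached 23.5 to 46.4 FPKM. FPKM is a level scaled by the authors for gene length and library size. Before the results, 3 libraries need mention. Sham replicate 1 had 11.9% of its counts from mitochondrially encoded genes, against 5.52% to 8.49% in the other 11 libraries. Sham replicate 3 had 105 FPKM summed over 11 skeletal muscle markers, against 0.357 to 2.08 FPKM in the other 11 libraries. In 3 h replicate 3 the 3 collagens and Lrat were lower than in the other 3 h libraries.

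**Figure D1:**
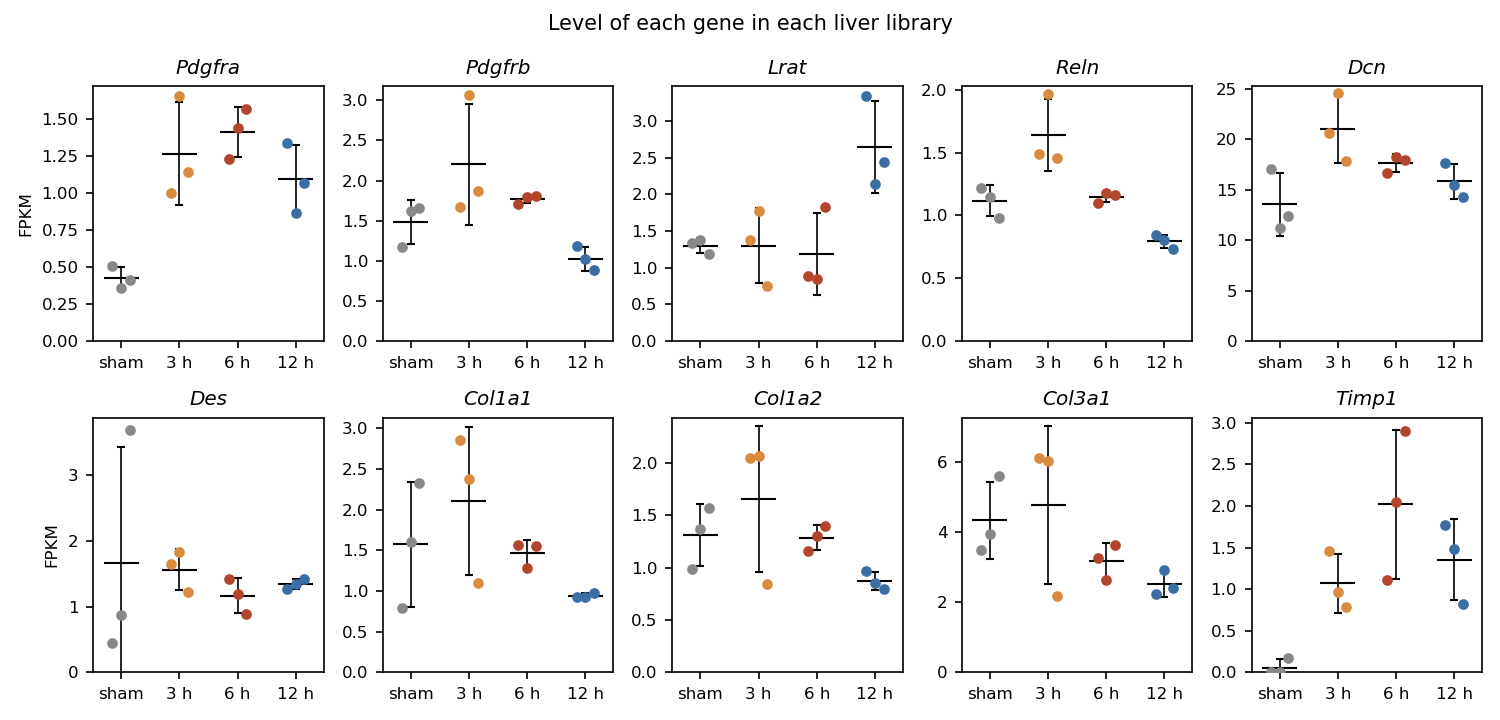
Level of each of the 10 genes (vertical axis, FPKM, a scale of its own per panel) in sham livers and at 3, 6 and 12 h after resection. Points are libraries in replicate order, horizontal lines are means and bars are SD (n = 3). Pdgfra and Timp1 were higher in all 9 resected livers than in all 3 sham livers, and Lrat was highest in the 12 h livers.

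Against sham, all calls among the 10 genes at 3 h and 6 h were rises, and at 12 h 3 were rises and 1 was a fall. Here and throughout, a call means an edgeR quasi-likelihood p under 0.05 after adjustment over all 11451 genes. At 3 h, 4 genes rose and none fell, namely Pdgfra, Reln, Dcn and Timp1, beside 21.6% of all tested genes called, 9.81% higher and 11.7% lower. At 6 h, 2 rose (Pdgfra and Timp1) and none fell, beside 35.0% of all tested genes called, 16.8% higher and 18.2% lower. At 12 h, 3 rose (Pdgfra, Lrat and Timp1) and Reln fell, beside 28.8% of all tested genes, 13.5% higher and 15.3% lower. Pdgfra and Timp1, counted at all 3 times, had no sham library at 1 FPKM and passed the filter through the resected groups. The median log2 difference of the 10 genes was 0.45 at 3 h, -0.02 at 6 h and -0.42 at 12 h, beside -0.02, -0.0088 and -0.02 for all tested genes. Across the 4 groups 5 of the 10 genes differed by the edgeR F-test (Pdgfra, Pdgfrb, Lrat, Reln and Timp1), the same share as the 50.0% of all tested genes.

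The values of 5 members lay above all sham values at 3 h (Pdgfra, Pdgfrb, Reln, Dcn and Timp1). Of all tested genes 36.4% did not overlap between those groups, 18.9% being higher. At 6 h 3 members lay above all sham values (Pdgfra, Pdgfrb and Timp1), beside 43.9% of all tested genes without overlap, 23.1% being higher. At 12 h 3 members lay above all sham values (Pdgfra, Lrat and Timp1) and 3 below (Reln, Col1a2 and Col3a1), beside 38.6% without overlap, 19.7% higher and 18.9% lower.

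Between the times after resection the calls among the 10 genes went mainly downwards. Set against 3 h, the 12 h livers had 5 lower genes (Pdgfrb, Reln, Col1a1, Col1a2 and Col3a1) and 1 higher gene (Lrat), beside 36.0% of all tested genes called, 18.2% lower and 17.8% higher. Set against 6 h, they had 2 lower genes (Pdgfrb and Reln) and Lrat higher, beside 24.7% of all tested genes, 12.6% lower and 12.1% higher. Between 6 h and 3 h no member was called in the main edgeR fit, beside 8.63% of all tested genes, 4.45% higher and 4.18% lower. In that comparison 1 member, Reln, had an unadjusted p under 0.05 (edgeR adjusted p = 0.0517), and DESeq2 called it. Alternative edgeR fits also called 1 member lower, without sham replicate 1, sham replicate 3 or 3 h replicate 3 and with library totals. At 6 h against 3 h only Reln did not overlap, being lower at 6 h. Of all tested genes 34.6% did not overlap there, 17.1% being lower. Without overlap, Lrat was higher at 12 h than at both earlier times. Of all 11451 genes, 2404 were higher in this way at 12 h against 6 h and 3068 at 12 h against 3 h. Pdgfrb, Reln, Col1a1 and Col1a2 were lower at 12 h than at 6 h, beside 46.8% of all tested genes without overlap, 25.8% being lower. Pdgfrb, Reln, Dcn and Col1a1 were lower at 12 h than at 3 h, beside 55.2% without overlap, 28.5% being lower. The comparisons with sham share the sham libraries, and those with 3 h share the 3 h libraries.

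The counts moved with single libraries, and so did those over all tested genes. At 12 h against sham, 9 of the 10 genes were called without sham replicate 1, 4 higher and 5 lower, while 5263 of all 11451 genes were called in place of 3298. Without sham replicate 2 or 12 h replicate 3, 2 members were called at 12 h against sham, beside 2377 and 2112 of all genes. Without 3 h replicate 2, 2 members were called at 3 h against sham, beside 1773 of all genes in place of 2468. At 12 h against 6 h, 1 was called without 6 h replicate 1 or 3 or 12 h replicate 2 or 3, and 0 without 6 h replicate 2. These fits called 2101, 2274, 1995, 1998 and 1853 of all genes, in the order given, in place of 2828. At 12 h against 3 h, 2 were called without 3 h replicate 1 or 12 h replicate 3, and 3 without 3 h replicate 2 or 12 h replicate 1 or 2. Here 2976, 2820, 3332, 3213 and 3325 of all genes were called, in the order given, in place of 4126. Across the groups 9 were called without sham replicate 1 or 3 h replicate 3, and 3 without 12 h replicate 3. Of all 11451 genes 7430, 5121 and 4710 were called across the groups in these fits, in the order given, in place of 5726. Without both sham replicate 3 and 3 h replicate 3, an alternative chosen after the values were seen, 6 genes were called at 3 h against sham, while 1675 of all 11451 genes were called in place of 2468. With library totals in place of TMM, 2 were called at 3 h against sham, 1 at 12 h against 6 h and 3 at 12 h against 3 h. Of all genes 3105, 3659 and 4463 were then called, in the order given. That scaling moved the share of higher genes among all calls to 25.3% from 45.5% at 3 h against sham and to 22.1% from 48.1% at 6 h against sham. The share became 30.1% in place of 51.5% at 6 h against 3 h, 84.4% in place of 49.0% at 12 h against 6 h, and 69.4% in place of 49.5% at 12 h against 3 h.

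**Figure D2:**
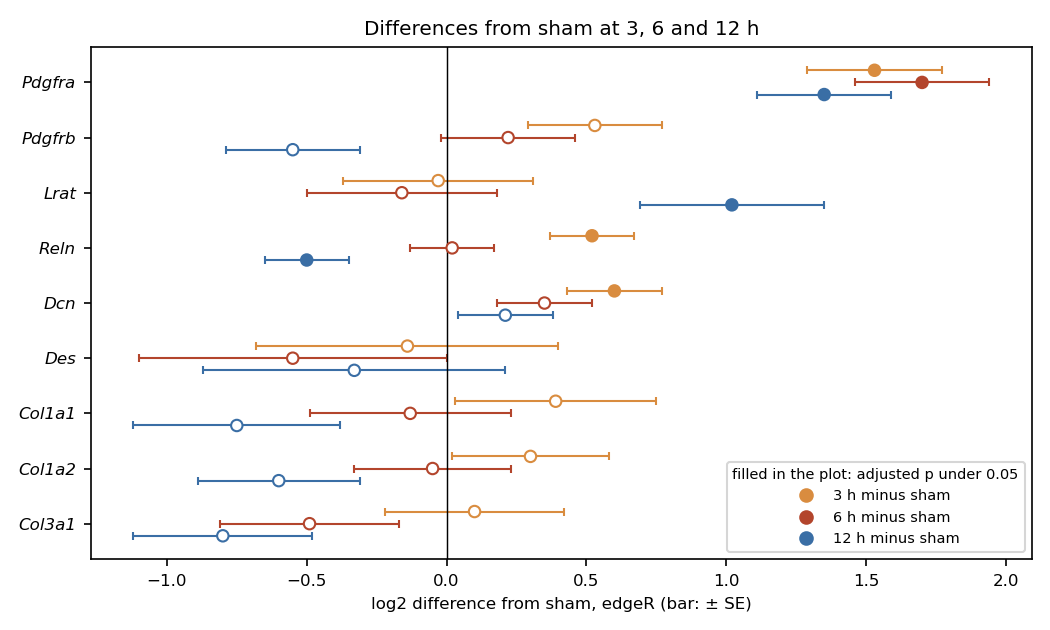
Log2 difference of 9 of the 10 genes at 3, 6 and 12 h from sham (horizontal axis, edgeR estimate, bars ± SE from 3 libraries a group). Filled points have an adjusted p under 0.05 over all tested genes. Timp1 is left out because 2 of 3 sham libraries had no count. Pdgfra is filled at all 3 times, from 1.35 to 1.70, Reln is filled on opposite sides at 3 h (0.52) and 12 h (-0.50), and Lrat is filled at 12 h only.

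Pdgfra (ENSMUSG00000029231, chromosome 5, 75152292 to 75198215, plus strand, GRCm38), the receptor that binds PDGF-AA and other PDGF dimers, was higher in every resected liver. Its level was 0.505, 0.359 and 0.415 FPKM in the sham livers. It was 1.0, 1.66 and 1.14 FPKM at 3 h, 1.23, 1.44 and 1.57 FPKM at 6 h, and 1.34, 0.869 and 1.07 FPKM at 12 h. No resected liver overlapped with a sham liver, and the 3 times overlapped with each other. The fitted difference was 2.89-fold at 3 h (log2 1.53 ± 0.24 SE, edgeR adjusted p = 0.000573). It was 3.25-fold at 6 h (1.70 ± 0.24, edgeR adjusted p = 0.000115) and 2.55-fold at 12 h (1.35 ± 0.24, edgeR adjusted p = 0.00108). All 3 calls held under each of the 24 alternatives tried. None of the 3 sham livers reached 1 FPKM, so the gene passed the filter through the resected groups, although its mean over all 12 libraries was 1.05 FPKM.

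The bases before the RefSeq start of Pdgfra are shown because the gene was called at all 3 times. They lie at chr5:75152001-75152250 on the plus strand of GRCm38.p6, and are printed 5′ to 3′.
Pdgfra: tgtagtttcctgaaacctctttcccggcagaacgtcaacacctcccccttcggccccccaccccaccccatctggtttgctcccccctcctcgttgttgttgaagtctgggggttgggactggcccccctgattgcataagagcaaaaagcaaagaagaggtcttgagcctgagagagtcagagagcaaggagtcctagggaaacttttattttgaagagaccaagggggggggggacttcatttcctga
The 7 motifs searched on both strands were TGAGTCA and TGAGTAA (AP-1), TTCNNNGAA (STAT), AGGTCA (a nuclear receptor motif), CACGTG (E-box), CCAAT and TATAA. None of these letters occurs in the 250 bases printed. They occur in 4.46%, 2.25%, 7.02%, 14.0%, 6.02%, 33.8% and 22.8% of the same stretch of 32851 RefSeq promoters, in the order given.

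Pdgfrb (ENSMUSG00000024620, chromosome 18, 61045150 to 61085061, plus strand), which binds PDGF-BB and is the receptor of pericytes and stellate cells, moved otherwise. Its level was 1.17, 1.62 and 1.66 FPKM in sham livers, 1.67, 3.07 and 1.87 FPKM at 3 h, 1.71, 1.79 and 1.81 FPKM at 6 h, and 1.18, 1.02 and 0.879 FPKM at 12 h. All 3 h and 6 h livers were above all 12 h livers, while the 12 h and sham livers overlapped. No difference from sham was called (0.53 ± 0.24 at 3 h, 0.22 ± 0.24 at 6 h and -0.55 ± 0.24 at 12 h, edgeR adjusted p = 0.139, 0.507 and 0.110). At 12 h Pdgfrb fell by 1.07 ± 0.24 on the log2 scale against 3 h (edgeR adjusted p = 0.00457), a call kept in all alternatives. It also fell by 0.77 ± 0.24 against 6 h (edgeR adjusted p = 0.0345). The call against 6 h was lost without 6 h replicate 1 (-0.80), 2 (-0.76) or 3 (-0.75), or without 12 h replicate 2 (-0.77) or 3 (-0.67). It was also lost with library totals (-0.47) and with limma on log2(FPKM + 1) (-0.45). Without sham replicate 1 the difference of 12 h from sham was -0.69 and was called (edgeR adjusted p = 0.0326).

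The level of Pdgfra relative to Pdgfrb in the same library does not depend on library scaling. This ratio of FPKM was 0.301 ± 0.113 in sham livers, 0.584 ± 0.0383 at 3 h, 0.796 ± 0.0737 at 6 h and 1.07 ± 0.194 at 12 h (SD, n = 3 each). The sham ratios (up to 0.431) lay below the 3 h ratios (0.540 to 0.610), and these below the 6 h ratios (0.719 to 0.866). The 6 h ratios overlapped with those at 12 h (0.852 to 1.22). Pdgfra was thus the less abundant of the receptors per length in every sham, 3 h and 6 h library, and the more abundant in 12 h replicates 1 and 3.

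**Figure D3:**
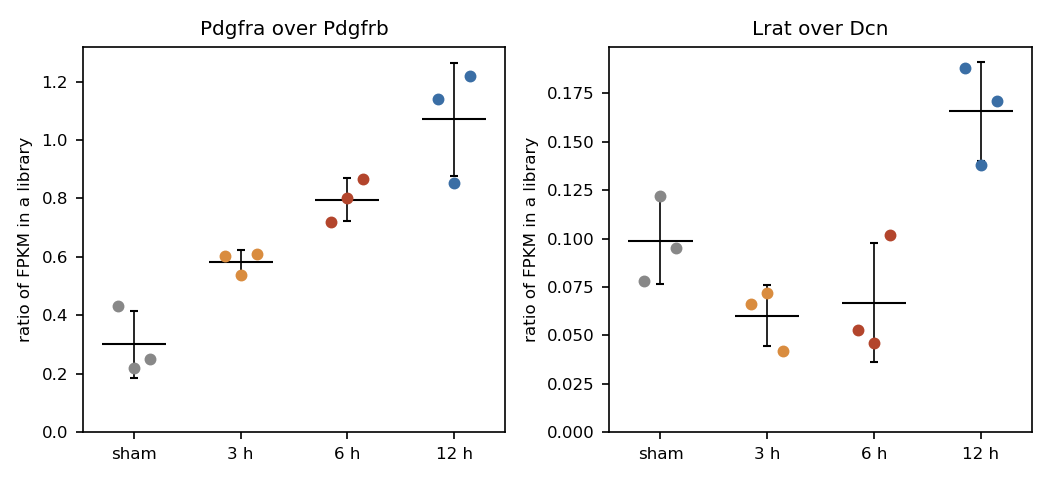
Ratio of FPKM values within each library (vertical axes, no unit) for Pdgfra over Pdgfrb and for Lrat over Dcn, in sham livers and at 3, 6 and 12 h. Points are libraries, lines are means and bars are SD (n = 3). The Pdgfra over Pdgfrb ratio has a mean of 0.301 in sham livers and 1.07 at 12 h, and the Lrat over Dcn ratio is highest at 12 h (mean 0.166).

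Among 19 PDGF ligands and genes of PDGF receptor signalling, 16 were tested. Of these, 3 rose and 2 fell at 3 h, 6 rose and 3 fell at 6 h, and 3 rose and 1 fell at 12 h against sham. The counts of this and each later list stand beside 9.81% higher and 11.7% lower of all tested genes at 3 h, 16.8% and 18.2% at 6 h, and 13.5% and 15.3% at 12 h, and are descriptions. Pdgfa, which encodes a ligand of the alpha receptor, fell: its level was 1.03 ± 0.186 FPKM at 3 h, against 2.75 ± 0.775 FPKM in sham livers (log2 -1.46 ± 0.29, edgeR adjusted p = 0.00272). At 6 h it was again lower (-1.37 ± 0.29, edgeR adjusted p = 0.00220), and at 12 h it had 2.86 ± 0.603 FPKM (0.05 ± 0.27, edgeR adjusted p = 0.918). Stat3, a transcription factor activated by many receptors, rose by 1.67 ± 0.12 at 6 h (edgeR adjusted p = 5.39e-07). Plcg1, a phospholipase recruited to activated receptors, fell by 1.55 ± 0.14 at 6 h (edgeR adjusted p = 2.82e-06). Pik3r2, a regulatory subunit of PI3-kinase, fell by 0.91 ± 0.24 at 12 h (edgeR adjusted p = 0.0127), and this call was lost without sham replicate 3 (-0.72). Without sham replicate 1, 6 genes of this list rose at 3 h and 5 at 12 h, and with library totals 2 rose and 6 fell at 6 h.

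Lrat (ENSMUSG00000028003, chromosome 3, 82892579 to 82903973, minus strand), which makes the retinyl esters that stellate cells store, rose at 12 h. Its level was 1.34, 1.37 and 1.18 FPKM in sham livers, 1.37, 1.77 and 0.755 FPKM at 3 h, 0.880, 0.849 and 1.83 FPKM at 6 h, and 3.34, 2.14 and 2.44 FPKM at 12 h. All 3 livers at 12 h were above the other 9, and the high value at 6 h belonged to replicate 3, the library with the time tag of 7 h. Lrat was 2.02-fold higher at 12 h than in sham livers (log2 1.02 ± 0.33, edgeR adjusted p = 0.0341). It was 2.06-fold higher than at 3 h (1.04 ± 0.33, edgeR adjusted p = 0.0268) and 2.26-fold higher than at 6 h (1.17 ± 0.34, edgeR adjusted p = 0.0217). At 3 and 6 h it did not pass the test against sham (-0.03 ± 0.34 and -0.16 ± 0.34, edgeR adjusted p = 0.964 and 0.758).

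The calls of Lrat were lost when some single libraries were left out. Against sham the call was lost without sham replicate 2 (1.06), sham replicate 3 (0.95), 12 h replicate 1 (0.81) or 12 h replicate 3 (1.07). Against 3 h it was lost without 3 h replicate 1 (1.08), 3 h replicate 3 (0.77), 12 h replicate 1 (0.84) or 12 h replicate 3 (1.10). Against 6 h it was lost without 6 h replicate 1 (1.0), 6 h replicate 2 (0.98) or 12 h replicate 1 (0.96). With limma on log2(FPKM + 0.1) the call against sham was lost (0.95). The ratio of Lrat to Dcn within a library was 0.0985 ± 0.0220 in sham livers, 0.0602 ± 0.0158 at 3 h, 0.0670 ± 0.0305 at 6 h and 0.166 ± 0.0254 at 12 h (SD, n = 3 each). All 12 h ratios (0.138 to 0.188) were above the highest of the other 9 libraries (0.122).

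The promoter of Lrat is shown because Lrat was the member that rose at 12 h against each of the other groups. The sequence is from RefSeq (chr3:82903975-82904224, GRCm38.p6, minus strand, 5′ to 3′), and the capitals mark a CCAAT match whose first base is 81 bases before the start and a TATAA match whose first base is 29 bases before it.
Lrat: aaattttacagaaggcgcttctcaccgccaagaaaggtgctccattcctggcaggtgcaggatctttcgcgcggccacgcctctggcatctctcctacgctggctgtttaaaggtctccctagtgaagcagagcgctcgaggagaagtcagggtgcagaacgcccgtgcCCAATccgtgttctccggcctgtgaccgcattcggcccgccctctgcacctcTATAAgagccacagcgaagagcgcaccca
Matches of CCAAT occur in 33.8% and of TATAA in 22.8% of all promoters over the same 250 bases, so neither is rare, and a match shows no binding.

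Of 25 genes of retinoid storage, transport and retinoic acid turnover, 18 were tested besides Lrat. Of these, 4 rose and 3 fell at 3 h, 4 rose and 6 fell at 6 h, and 2 rose and 7 fell at 12 h against sham. Against 3 h, 9 fell and 1 rose at 12 h, beside 18.2% lower and 17.8% higher of all tested genes. Without 3 h replicate 3, 1 fell at 3 h against sham and 0 rose at 12 h against 3 h. The retinoic acid hydroxylase Cyp26b1 had 2.15 ± 0.300 FPKM at 6 h, against 0.0759 ± 0.0209 FPKM in sham livers (edgeR adjusted p = 0.000325), and passed the filter through the resected livers. The related hydroxylase Cyp26a1 went the other way, with 1.07 ± 0.702 FPKM at 6 h, against 7.45 ± 0.690 FPKM in sham livers (log2 -2.84 ± 0.50, edgeR adjusted p = 0.000713, and -3.45 without 6 h replicate 3). Bco1, which cleaves beta-carotene to retinal, rose by 2.43 ± 0.30 at 6 h (edgeR adjusted p = 3.80e-05). Pnpla3, a lipase with retinyl esterase activity in human stellate cells, had 0.0349, 0.177 and 0 FPKM at 12 h, against 2.74, 1.28 and 1.07 FPKM in sham livers (edgeR adjusted p = 0.00435). Its fitted log2 difference was -4.49 ± 0.98, and -6.24 without 12 h replicate 2. Cyp26a1 is chiefly a hepatocyte gene, and these whole-liver values do not separate the cell types.

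Reln (ENSMUSG00000042453, chromosome 5, 21884454 to 22344702, minus strand), a ligand of lipoprotein receptors that stellate cells secrete in liver, rose at 3 h and fell at 12 h. Its level was 1.22, 1.15 and 0.979 FPKM in sham livers, 1.49, 1.97 and 1.46 FPKM at 3 h, 1.10, 1.18 and 1.16 FPKM at 6 h, and 0.843, 0.803 and 0.736 FPKM at 12 h. The 3 h livers were all above, and the 12 h livers all below, the sham and 6 h livers. Reln was 1.43-fold higher at 3 h than in sham livers (log2 0.52 ± 0.15, edgeR adjusted p = 0.0227). At 12 h it fell by 0.50 ± 0.15 against sham (edgeR adjusted p = 0.0223), by 0.52 ± 0.15 against 6 h (edgeR adjusted p = 0.0223) and by 1.02 ± 0.15 against 3 h (edgeR adjusted p = 0.000274). The last of these calls held in every alternative. The difference of 6 h from 3 h was -0.50 ± 0.15 and missed the threshold (edgeR adjusted p = 0.0517).

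The smaller differences of Reln lost their call when some single libraries were left out, at similar values for most. The rise at 3 h was lost without sham replicate 3 (0.43) or 3 h replicate 2 (0.36). The fall at 12 h against sham was lost without sham replicate 2 (-0.48), 12 h replicate 2 (-0.51) or 12 h replicate 3 (-0.44). Against 6 h the fall was lost without 6 h replicate 2 (-0.49) or 3 (-0.51) or 12 h replicate 2 (-0.53) or 3 (-0.46). With limma on log2(FPKM + 1) or log2(FPKM + 0.1) none of the 3 was called, at 0.32 and 0.51 for 3 h against sham, -0.24 and -0.44 for 12 h against sham, and -0.26 and -0.49 for 12 h against 6 h. With library totals the rise at 3 h (0.35) and the fall against 6 h (-0.22) were lost. The rise at 3 h (0.54) and the fall at 12 h against sham (-0.49) were lost with just the 6 libraries compared, and that fall (-0.51) also with no filter. Of 14 receptors and signalling partners of reelin and decorin, 6 were tested. None rose and 1 fell at 3 h, 3 rose and 1 fell at 6 h, and 1 rose at 12 h against sham. Among them were the receptor genes Egfr (0.87 ± 0.22 at 6 h, edgeR adjusted p = 0.00671), Tlr2 (1.36 ± 0.37, edgeR adjusted p = 0.0109, with no sham liver at 1 FPKM) and Met (-0.74 ± 0.20, edgeR adjusted p = 0.00982), and the tetraspanin gene Cd63 (1.51 ± 0.38 at 12 h, edgeR adjusted p = 0.00924, and 2.29 without sham replicate 3). Leaving out sham replicate 1, 2 of the 6 rose at 3 h, 2 fell at 6 h and 4 rose at 12 h, and with library totals 2 rose and 2 fell at 6 h.

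Dcn (ENSMUSG00000019929, chromosome 10, 97479609 to 97518143, plus strand), whose product binds collagen fibrils and TGF-beta, was the most abundant of the 10 genes per length. Its level was 17.1, 11.2 and 12.4 FPKM in sham livers, 20.6, 24.6 and 17.9 FPKM at 3 h, 16.7, 18.3 and 18.0 FPKM at 6 h, and 17.7, 15.5 and 14.3 FPKM at 12 h. All 3 h livers were above all sham livers, and sham replicate 1 overlapped with the 6 h and 12 h livers. Dcn rose 1.51-fold at 3 h (log2 0.60 ± 0.17, edgeR adjusted p = 0.0263). The call was lost without sham replicate 2 (0.48), sham replicate 3 (0.54), 3 h replicate 1 (0.63) or 3 h replicate 2 (0.46). It was also lost with library totals (0.43), with just the 6 libraries compared (0.61), and without both sham replicate 3 and 3 h replicate 3 (0.65). Without sham replicate 1, whose Dcn level is the highest of the sham livers, the differences at 6 h (0.55, edgeR adjusted p = 0.0101) and 12 h (0.41, edgeR adjusted p = 0.0395) were also called. With all libraries they were 0.35 ± 0.17 and 0.21 ± 0.17 (edgeR adjusted p = 0.137 and 0.387).

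Des (ENSMUSG00000026208, chromosome 1, 75360329 to 75368579, plus strand) is used to stain stellate cells in rodent liver and is also a major filament protein of muscle. Its level was 0.439, 0.874 and 3.68 FPKM in sham livers, 1.64, 1.82 and 1.22 FPKM at 3 h, 1.42, 1.19 and 0.883 FPKM at 6 h, and 1.27, 1.34 and 1.42 FPKM at 12 h. Sham replicate 3 was above all other libraries and the other sham replicates below all of them. In that library the muscle actin gene Acta1 had 44.3 FPKM, the muscle creatine kinase gene Ckm 6.85 FPKM and the muscle myosin light chain gene Mylpf 11.6 FPKM. Acta1 and Ckm were at 0 in 10 of the other 11 libraries, and in 12 h replicate 2 they had 0.784 and 0.0376 FPKM. The part of muscle RNA in the Des value was not tested. Des was not called at any time (-0.14 ± 0.54, -0.55 ± 0.55 and -0.33 ± 0.54 at 3, 6 and 12 h, edgeR adjusted p = 0.884, 0.474 and 0.685). Without sham replicate 3 the differences were 1.21 at 3 h (edgeR adjusted p = 0.0237), 0.80 at 6 h (edgeR adjusted p = 0.0946) and 1.02 at 12 h (edgeR adjusted p = 0.0479).

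**Figure D4:**
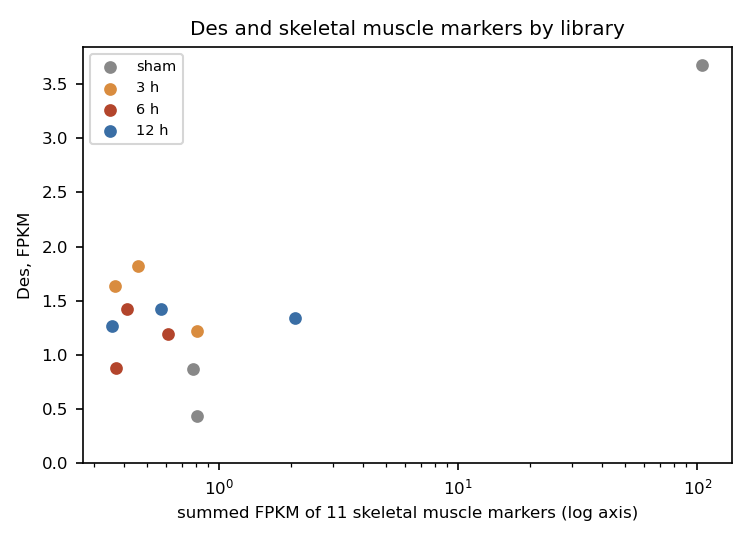
Des level (vertical axis, FPKM) against the summed level of 11 skeletal muscle markers (horizontal axis, FPKM, log scale) in each of the 12 libraries, coloured by group. Sham replicate 3 stands alone at 105 FPKM of muscle markers and 3.68 FPKM of Des, and the other sham livers have the lowest Des levels (0.439 and 0.874 FPKM).

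Of 17 contractile and activated fibroblast genes, 9 were tested. Of these, 4 rose at 3 h, 2 rose at 6 h, and 2 rose and 1 fell at 12 h against sham. Set against 3 h, 3 fell and none rose at 12 h, beside 18.2% lower and 17.8% higher of all tested genes. The contractile gene Myl9, a smooth muscle myosin light chain, rose by 1.27 ± 0.33 at 3 h (edgeR adjusted p = 0.0141, lost without 3 h replicate 2 at 1.05). Vim, which encodes vimentin, rose by 0.77 ± 0.19 at 3 h (edgeR adjusted p = 0.0121, lost without 3 h replicate 2 at 0.68). Spp1, encoding osteopontin, rose by 0.67 ± 0.15 at 6 h (edgeR adjusted p = 0.00346). Acta2, the smooth muscle actin gene of this list, was not called against sham at any time. Its differences were 0.82 ± 0.48 at 3 h, 0.60 ± 0.48 at 6 h and -1.10 ± 0.50 at 12 h (edgeR adjusted p = 0.248, 0.361 and 0.120). Its 3 h levels were 5.75, 7.03 and 1.33 FPKM. Acta2 was called lower at 12 h than at 6 h (-1.70 ± 0.50, edgeR adjusted p = 0.0255) and than at 3 h (-1.92 ± 0.50). The muscle tropomyosin gene Tpm2 was the 1 that fell at 12 h against sham (-2.36 ± 0.82, edgeR adjusted p = 0.0463). Its sham values were 0.465, 0.961 and 8.92 FPKM, the last in the library with muscle markers, and without that library its difference was -0.09. With library totals none of the 9 was called at 6 h.

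Col1a1, Col1a2 and Col3a1, the chains of the main fibrillar collagens, were not called against sham at any time in the edgeR fit with all libraries and the filter on low values, and were lower at 12 h than at 3 h. Col1a1 (ENSMUSG00000001506, chromosome 11, 94936224 to 94953042, plus strand) had 0.798, 1.60 and 2.33 FPKM in sham livers, 2.86, 2.38 and 1.10 FPKM at 3 h, 1.57, 1.29 and 1.56 FPKM at 6 h, and 0.923, 0.926 and 0.981 FPKM at 12 h. Col1a2 (ENSMUSG00000029661, chromosome 6, 4504814 to 4541544, plus strand) had 0.990, 1.37 and 1.57 FPKM in sham livers, 2.05, 2.07 and 0.846 FPKM at 3 h, 1.16, 1.30 and 1.40 FPKM at 6 h, and 0.967, 0.851 and 0.798 FPKM at 12 h. In both genes 3 h replicates 1 and 2 were the highest of all 12 libraries, and 3 h replicate 3 was close to the 12 h livers. Col3a1 (ENSMUSG00000026043, chromosome 1, 45311538 to 45349706, plus strand) had 3.51, 3.95 and 5.60 FPKM in sham livers, 6.14, 6.03 and 2.17 FPKM at 3 h, 3.26, 2.63 and 3.64 FPKM at 6 h, and 2.23, 2.92 and 2.42 FPKM at 12 h. Its value in 3 h replicate 3 was the lowest of all.

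Within 12 h against 3 h, Col1a1 fell by 1.14 ± 0.37 (edgeR adjusted p = 0.0277), Col1a2 by 0.90 ± 0.29 (edgeR adjusted p = 0.0268) and Col3a1 by 0.90 ± 0.32 (edgeR adjusted p = 0.0420). The 12 h and 3 h values of Col1a2 and Col3a1 overlapped through 3 h replicate 3. The Col1a1 call was lost without 3 h replicate 1 (-0.86), 3 h replicate 2 (-1.05), or 12 h replicate 1 (-1.13), 2 (-1.13) or 3 (-1.16). That of Col1a2 was lost without 3 h replicate 1 (-0.72), 3 h replicate 2 (-0.71), 12 h replicate 2 (-0.88) or 12 h replicate 3 (-0.84). That of Col3a1 was lost without 3 h replicate 1 (-0.68), 3 h replicate 2 (-0.70), 6 h replicate 1 (-0.90), 6 h replicate 2 (-0.90) or 12 h replicate 1 (-0.82), 2 (-1.02) or 3 (-0.87). With library totals the 3 differences were -0.99, -0.74 and -0.75, with limma on log2(FPKM + 1) -0.63, -0.47 and -0.63, and with limma on log2(FPKM + 0.1) -0.99, -0.76 and -0.76, and none was called.

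Against sham the differences of the collagens at 3 h were 0.39 ± 0.36 for Col1a1, 0.30 ± 0.28 for Col1a2 and 0.10 ± 0.32 for Col3a1 (edgeR adjusted p = 0.487, 0.494 and 0.852). Without both sham replicate 3 and 3 h replicate 3 they were 1.10, 0.78 and 0.68, and all 3 genes were called. At 12 h they were -0.75 ± 0.37 for Col1a1, -0.60 ± 0.29 for Col1a2 and -0.80 ± 0.32 for Col3a1 (edgeR adjusted p = 0.140, 0.135 and 0.0770). Without sham replicate 1, which had the lowest sham level of each, they were -1.07, -0.77 and -0.94, and all 3 were called. Without 3 h replicate 3, Col1a2 (-0.60) and Col3a1 (-0.80) were also called lower at 12 h than in sham livers. With all 12 libraries and no filter on low values, where 27369 genes were tested, Col1a1 (-0.77), Col1a2 (-0.61) and Col3a1 (-0.81) were called at 12 h against sham. Col3a1 was also called there by DESeq2 (-0.79, adjusted p = 0.0491) and with just the 6 libraries of the comparison (-0.79). The ratio of Col1a1 to Col1a2 had a mean between 1.09 and 1.28 in the 4 groups, and it was 0.806 in sham replicate 1, the lowest value.

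Of 38 other collagens, proteoglycans and basement membrane genes, 22 were tested. Of these, 10 rose and none fell at 3 h, 8 rose and 2 fell at 6 h, and 5 rose and 3 fell at 12 h against sham. Set against 3 h, 12 fell and 2 rose at 12 h, beside the 18.2% lower and 17.8% higher of all tested genes given above. The basement membrane collagen gene Col4a1 had 16.5 ± 2.14 FPKM at 6 h, against 3.30 ± 0.696 FPKM in sham livers (log2 2.29 ± 0.19, edgeR adjusted p = 1.96e-06). Fn1, encoding fibronectin, rose by 1.73 ± 0.16 at 6 h (edgeR adjusted p = 3.93e-06). Nid1, encoding the laminin-binding nidogen 1, rose by 1.53 ± 0.30 at 6 h (edgeR adjusted p = 0.00135), and Emilin1, an elastic fibre gene, by 1.44 ± 0.33 at 3 h (edgeR adjusted p = 0.00654). Fibronectin is also a plasma protein made by hepatocytes, and its level of 354 ± 30.1 FPKM at 6 h was far above that of the other genes named. Among these genes 6 fell at 12 h against sham without sham replicate 1, and 1 fell without sham replicate 3. Without 3 h replicate 3, 14 fell and 0 rose at 12 h against 3 h. With library totals, 7 rose at 3 h and 3 rose at 6 h against sham, and 8 fell at 12 h against 3 h.

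Of 21 genes that modify, fold, cleave or crosslink collagen, 13 were tested. Of these, 3 rose at 3 h, 4 rose at 6 h, and 3 rose and 1 fell at 12 h against sham. The crosslinking enzyme genes Loxl4 (2.81 ± 0.79, edgeR adjusted p = 0.0137, lost without 6 h replicate 1 at 2.25) and Tgm2 (2.06 ± 0.24, edgeR adjusted p = 3.17e-05) rose at 6 h. P3h1, a prolyl hydroxylase of collagen, also rose then (1.65 ± 0.19, edgeR adjusted p = 2.65e-05). Serpinh1, the collagen chaperone HSP47, rose by 1.06 ± 0.32 at 3 h (edgeR adjusted p = 0.0315), a call lost without sham replicate 1 (0.82) or 3 h replicate 1 (0.92) or 2 (0.89). With library totals 3 genes of this list rose and 4 fell at 6 h, and without sham replicate 1, 2 fell at 6 h and 3 at 12 h. Like the collagens, Serpinh1 was low in 3 h replicate 3, with 5.81 FPKM against 12.6 FPKM in each of the other 3 h livers.

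Of 13 genes known to be induced by TGF-beta, 9 were tested, with 2 higher and 2 lower at 3 h, 2 higher and 1 lower at 6 h, and 2 higher at 12 h against sham. Skil, a TGF-beta feedback gene, rose by 0.99 ± 0.21 at 6 h (edgeR adjusted p = 0.00230). The matricellular genes Ctgf and Cyr61 went opposite ways. Ctgf rose by 1.54 ± 0.47 at 3 h (edgeR adjusted p = 0.0339, lost without sham replicate 2 at 1.47 and without 3 h replicate 1 at 1.62 or 2 at 1.24, and 2.27 without sham replicate 3). Cyr61 fell by 1.36 ± 0.31 at 6 h (edgeR adjusted p = 0.00400). With sham replicate 1 left out, 3 genes of this list fell at 12 h.

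Timp1 (ENSMUSG00000001131, chromosome X, 20870166 to 20874735, plus strand) was close to undetected in sham livers and present in every resected liver. Its counts were 0, 0 and 3 in sham livers, 21, 13 and 10 at 3 h, 14, 28 and 35 at 6 h, and 29, 24 and 13 at 12 h. As levels these were 0, 0 and 0.176 FPKM in sham livers, 0.784 to 1.46 FPKM at 3 h, 1.11 to 2.90 FPKM at 6 h and 0.820 to 1.77 FPKM at 12 h. No resected liver overlapped with a sham liver, and the 3 times overlapped. Summed over libraries and scaled for library size, the ratio to sham was 17.6 at 3 h (95% exact interval 5.63 to 88.5), 32.6 at 6 h (10.7 to 161) and 22.1 at 12 h (7.24 to 110). These intervals cover counting error only, and their width comes from the 3 counts in sham livers, all of them in sham replicate 3, the library with muscle markers. The edgeR adjusted p was 0.00451 at 3 h, 0.000394 at 6 h and 0.00176 at 12 h, and all 3 calls held under every alternative tried. The size did not hold: the log2 difference over the alternatives lay between 0.96 and 7.15 at 3 h, between 1.47 and 7.88 at 6 h, and between 1.14 and 7.33 at 12 h. The lowest were with limma on log2(FPKM + 1), and the highest without both sham replicate 3 and 3 h replicate 3, where no sham count is left and the fitted value depends on the prior count. Like Pdgfra, Timp1 had no sham library at 1 FPKM and passed the filter through the resected groups. It lies within Syn1 on the opposite strand, which had a mean of 0.0535 FPKM, and the strand setting of the counting is not given in the sources used here.

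The stretch before the RefSeq start of Timp1 is shown because Timp1 had the largest ratio to sham. It lies at chrX:20869916-20870165 on the plus strand of GRCm38.p6, and the capitals mark ATTGG, which is CCAAT on the opposite strand.
Timp1: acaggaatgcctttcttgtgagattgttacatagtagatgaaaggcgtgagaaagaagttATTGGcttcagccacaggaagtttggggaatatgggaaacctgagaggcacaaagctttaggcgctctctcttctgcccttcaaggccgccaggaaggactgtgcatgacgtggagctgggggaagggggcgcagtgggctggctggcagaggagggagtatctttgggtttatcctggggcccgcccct
A match to TGAGTAA, an AP-1 variant, begins at base 27 after the start. It is in capitals in the bases at chrX:20870182-20870208.
Timp1 site: ggtgggtggaTGAGTAAtgcgtccagg
This variant occurs in 2.68% of all 32851 windows of 300 bases around a start, and CCAAT in 33.8% of the 250 bases before it. A match is a description of these letters and no evidence of binding. Windows were found for 7 of the 10 genes. In the other windows with a match, Reln held CACGTG, Col1a2 held CCAAT and Col3a1 held TATAA before the start, and Pdgfra held TATAA at base 45 after it. No sequence is shown for Pdgfrb, Dcn and Col1a1.

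Of 28 metalloproteinases, inhibitors and plasminogen activation genes, 13 were tested besides Timp1. Of these, 5 rose and 1 fell at 3 h, 6 rose and 1 fell at 6 h, and 5 rose at 12 h against sham. Among the other inhibitors, Timp2 and Timp3 were named after their values were seen, to set beside Timp1. Timp3, a matrix-bound inhibitor, had 1.39 ± 0.382 FPKM at 3 h, against 0.530 ± 0.147 FPKM in sham livers (log2 1.35 ± 0.26, edgeR adjusted p = 0.00237). It reached 1 FPKM in the 3 h livers only, so it passed the filter through the group where it is high. Timp2 had 3.94 ± 0.528 FPKM at 3 h, against 2.86 ± 0.642 FPKM in sham livers, and was not called (0.42 ± 0.19, edgeR adjusted p = 0.128). The ratio of Timp1 to Timp2 was 0.0165 ± 0.0286 in sham livers, 0.271 ± 0.0777 at 3 h, 0.602 ± 0.236 at 6 h and 0.631 ± 0.235 at 12 h (SD, n = 3 each).

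Proteases changed as well. The secreted stromelysin gene Mmp3 had 0.429, 0.865 and 2.45 FPKM at 6 h, against 0, 0.0299 and 0.0577 FPKM in sham livers (log2 5.15 ± 1.14, edgeR adjusted p = 0.00324). The difference was 5.96 without sham replicate 3 and 4.22 without 6 h replicate 3. Mmp3 reached 1 FPKM in 3 libraries, all of resected livers, so it passed the filter through the groups where it is high. The membrane metalloproteinase gene Mmp15 fell by 3.27 ± 0.32 at 6 h (edgeR adjusted p = 7.20e-06), and at 12 h it had 6.74 ± 1.12 FPKM, against 8.07 ± 3.14 FPKM in sham livers. Plaur, the urokinase receptor gene, rose by 2.62 ± 0.47 at 3 h (edgeR adjusted p = 0.00148), and it too had no sham liver at 1 FPKM. In the list 3 genes fell at 12 h without sham replicate 1, and with library totals 2 fell at 3 h and 2 at 6 h.

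Of 23 other genes that mark hepatic stellate cells, 17 were tested. Of these, 6 rose and 2 fell at 3 h, 2 rose and 4 fell at 6 h, and 4 rose and 4 fell at 12 h against sham. Set against 3 h, 9 fell and 1 rose at 12 h. Of all tested genes 9.81% rose and 11.7% fell at 3 h, 18.2% fell at 6 h, and 18.2% fell at 12 h against 3 h. Hgf, the hepatocyte growth factor gene, had 2.06, 1.73 and 1.96 FPKM at 12 h, against 1.02, 0.703 and 0.441 FPKM in sham livers (log2 1.40 ± 0.29, edgeR adjusted p = 0.00310). Pth1r, the parathyroid hormone receptor gene, fell by 2.59 ± 0.27 at 12 h (edgeR adjusted p = 2.64e-05), and Angptl6, an angiopoietin-like factor gene, by 1.78 ± 0.32 (edgeR adjusted p = 0.00121). Steap4, a metalloreductase gene, rose by 4.92 ± 0.24 at 6 h (edgeR adjusted p = 5.34e-08), to 797 ± 215 FPKM at 6 h against 25.9 ± 2.99 FPKM in sham livers. That level is far above those of the 10 genes, and these whole-liver values do not show which cells it came from. At 6 h 4 of the 17 rose and 7 fell without sham replicate 1, and without sham replicate 3, 2 fell at 6 h.

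**Figure D5:**
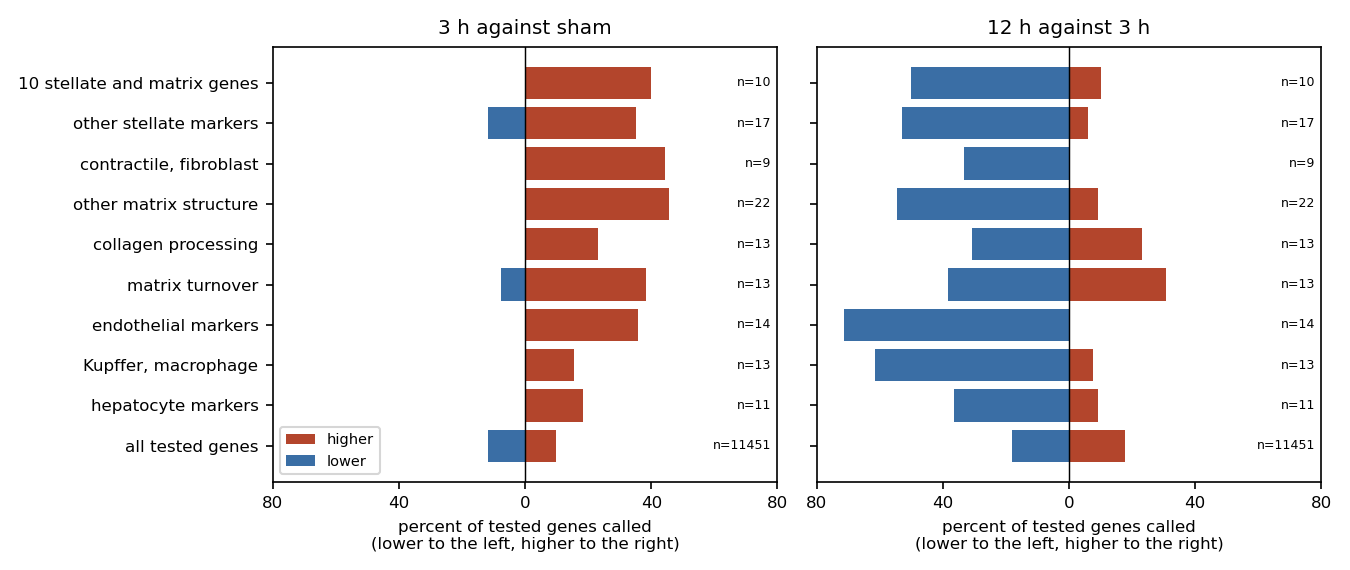
Share of tested genes called higher (red, to the right) and lower (blue, to the left) for the 10 genes, for other lists and for all tested genes (horizontal axis, percent, n beside each bar), at 3 h against sham and at 12 h against 3 h. At 3 h against sham 4 of the 10 genes are higher and none lower. At 12 h against 3 h 5 are lower and 1 higher, and 10 of 14 endothelial and 8 of 13 Kupffer cell and macrophage markers are lower too. Of all tested genes 9.81% are higher and 11.7% lower at 3 h against sham. At 12 h against 3 h 18.2% of them are lower and 17.8% higher.

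Markers of other non-parenchymal cells moved in the same comparisons, and their part in the results was not tested. The counts given below for 12 h against 3 h stand beside 18.2% lower and 17.8% higher of all tested genes. Of 14 tested endothelial markers 5 rose at 3 h against sham, and 10 fell at 12 h against 3 h. Their summed level was 76.4 to 100 FPKM at 3 h and 43.4 to 52.9 FPKM at 12 h, with 53.4 to 64.3 FPKM in sham livers. Of the 14, 3 rose at 3 h without sham replicate 1 and 2 with library totals. Of 13 tested Kupffer cell and macrophage markers 2 rose at 3 h against sham, and 8 fell and 1 rose at 12 h against 3 h. Their sum was 187 to 220 FPKM at 3 h and 91.2 to 116 FPKM at 12 h, with 135 to 185 FPKM in sham livers. At 12 h against sham 3 of the endothelial markers fell and 1 rose, and 6 of the Kupffer cell and macrophage markers fell and 1 rose. Then the sinusoidal endothelial genes Oit3 (-1.12 ± 0.18, edgeR adjusted p = 0.000543) and Kdr (-0.97 ± 0.22, edgeR adjusted p = 0.00528) fell, and so did the Kupffer cell gene Clec4f (-1.12 ± 0.16, edgeR adjusted p = 0.000289). The largest called differences of both lists went the other way. Marco, a macrophage scavenger receptor gene, rose by 2.76 ± 0.41 at 12 h (edgeR adjusted p = 0.000363, and 3.41 without sham replicate 2), and Lyve1, a hyaluronan receptor gene of sinusoidal endothelium, by 2.27 ± 0.38 at 6 h (edgeR adjusted p = 0.000424). Of 11 hepatocyte markers 4 fell and 1 rose at 12 h against 3 h, and their sum was 56142 to 61540 FPKM at 3 h and 37000 to 39800 FPKM at 12 h.

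Other lists gave these values. Of 11 neutrophil markers 4 were tested, and all 4 rose at 3 h against sham, among them S100a9 (3.28 ± 0.43, edgeR adjusted p = 0.000153). The summed level of the 11 was 13.4 to 14.5 FPKM at 3 h, against 1.84 to 2.45 FPKM in sham livers. That sham sum leaves no room for all 4 at 1 FPKM, so some of them passed the filter through the resected livers. The count of 4 is therefore a description only. Mpo had no count in any library. Of 3 tested bile duct markers 1 rose and 1 fell at 3 h against sham. The summed level of 8 mesothelial markers, none of them tested, was 0.882 to 3.24 FPKM over all libraries. At 3 h this sum was 1.06 to 3.14 FPKM, and in sham livers 2.70 to 3.24 FPKM.

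The tested protein-coding genes whose profile over the 12 libraries was nearest to that of a member were found by the root mean square (RMS) difference of centred log2(FPKM + 0.1). Col1a1, Col1a2 and Col3a1 were among each other's 3 nearest genes in all but 1 direction, with RMS differences of 0.225 (Col1a1 and Col1a2), 0.230 (Col1a2 and Col3a1) and 0.283 (Col3a1 and Col1a1). The second nearest to Col1a1 was Hspg2, the basement membrane proteoglycan perlecan (0.243). The nearest to Pdgfrb was Stab1, a scavenger receptor gene of sinusoidal endothelium (0.148), and the second nearest to Reln was Adgrf5, an adhesion receptor gene (0.140). Further nearest genes were Vps13a for Lrat (0.321), Ints7 for Dcn (0.129), Slc25a4 for Des (0.395) and Nnmt for Timp1 (0.601). For a typical tested gene the RMS difference was 0.549 from Pdgfrb, 0.687 from Lrat, 0.493 from Reln, 0.452 from Dcn and 0.735 from Des. It was 0.648 from Col1a1, 0.550 from Col1a2, 0.618 from Col3a1 and 1.60 from Timp1. The nearest genes were picked as the smallest of these differences, so they lie below a typical gene by construction. The typical values give the scale only.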

How the data were processed

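Whole-liver poly(A) RNA-seq was analysed in 12 libraries, 3 in each of 4 groups. The deposited table holds whole-number counts per gene, with no normalization, and FPKM values beside them, both per the file headers. CASAVA 1.8, fastp, HISAT2 2.0.5, featureCounts 1.5.0-p3, DESeq2 1.20.0 and GRCm38 (mm10) are named in the submitters' processing notes, with no role or order stated. RNA was extracted with TRIzol and a NEBNext Ultra kit served for the libraries, per the labels' protocols. From the values, the deposited FPKM use an effective library size of 0.855 to 1.15 times the total counts, close to the TMM factors.

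Samples were grouped by title. The tests covered genes that reached 1 FPKM in at least 3 libraries (11451 of 54532, at least 99.1% of the counts of each library). The edgeR 4.0.16 quasi-likelihood test (R 4.3.3) was fitted to the deposited counts with TMM scaling in 1 model of 4 groups, two-sided, with Benjamini-Hochberg adjustment over all tested genes in each of 6 comparisons and across the groups. The code was tested on simulated data. Library totals of 15573405 to 17199639 counts and a common biological coefficient of variation (20.6%) bear on the precision. Count ratios of Timp1 have exact (Clopper-Pearson) 95% intervals, which cover counting error only. Alternatives were DESeq2 1.42.0, limma 3.58.1 on log2(FPKM + 1) and log2(FPKM + 0.1), median-ratio factors, library totals, no filter, a filter on the mean, robust estimation, a fit to just the 6 libraries of a comparison, a block for the replicate number, and libraries left out.

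The 10 genes and the lists were chosen with earlier results of these data known. Named are the 10 genes, up to 4 called genes per list with the largest difference from sham, the 3 nearest profiles of each member, and defining markers of other cell types. Acta2, Timp2 and Timp3 were named besides, after their values were seen. Some genes that these rules name are not reported here. Positions are those of the table and equal GENCODE M21 for all 10 genes. Promoters are from RefSeq (GRCm38.p6).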

Additional observations from a re-analysis of the deposited data

Results flagged for a closer look

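The differences between times after resection were tested directly, and 9 of them passed the threshold, so that the change from sham differed between those times. The share of all tested genes that differed in the same way was 36.0% at 12 h against 3 h and 24.7% at 12 h against 6 h.

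Lrat was higher at 12 h than at 6 h by 1.17 and than at 3 h by 1.04 on the log2 scale. Pdgfrb was lower at 12 h, with differences of -0.77 from 6 h and -1.07 from 3 h, and Reln likewise, with -0.52 from 6 h and -1.02 from 3 h. The collagens were lower at 12 h than at 3 h, with -1.14 for Col1a1, -0.90 for Col1a2 and -0.90 for Col3a1. Of these 9, the differences of Pdgfrb and Reln between 12 h and 3 h kept their call under all 24 alternatives.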

How the results depend on the processing

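Of 19 called differences, 8 kept their call and direction under all 24 alternatives: Pdgfra and Timp1 at each time against sham, and Pdgfrb and Reln at 12 h against 3 h. None of the 19 reversed. Of 20 differences from sham that were not called, 2 kept direction and call state throughout, and 34 values reversed. The causes were not tested.

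With library totals, members called were 2 at 3 h against sham, 1 at 6 h against 3 h, 1 at 12 h against 6 h and 3 at 12 h against 3 h. Under this scaling the median log2 difference of all genes was -0.20, -0.32 and -0.03 at 3, 6 and 12 h against sham (-0.02, -0.0088 and -0.02 with TMM), -0.12 at 6 h against 3 h (0.01), 0.26 at 12 h against 6 h (-0.04) and 0.17 at 12 h against 3 h (0.0055). It reversed Pdgfrb at 6 h against sham (-0.09), Reln at 6 h (-0.29) and Col3a1 at 3 h (-0.07). With only the 6 libraries compared the counts were 2 at 3 h against sham, 1 at 6 h against 3 h and 5 at 12 h against 6 h. With no filter they were 1 at 6 h against 3 h, 5 at 12 h against 6 h and 9 across the groups, and Lrat at 3 h was 0.02. DESeq2 gave 1 at 6 h against 3 h and 8 across the groups, and median-ratio factors and the filter on the mean gave 1 each at 6 h against 3 h. Limma on log2(FPKM + 1) gave 1 at 12 h against 6 h and 3 at 12 h against 3 h, with Des at 0.13 at 3 h and 0.008 at 12 h against sham. Limma on log2(FPKM + 0.1) gave 2 at 12 h against sham and 3 at 12 h against 3 h, with Des at 0.39 at 3 h and 0.20 at 12 h and Col1a1 at 0.02 at 6 h.

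Without both sham replicate 1 and 6 h replicate 3, 9 members were called at 12 h against sham and 1 at 6 h against 3 h, and Col3a1 at 3 h was -0.03. Without both sham replicate 3 and 3 h replicate 3, chosen after seeing the data, 1 was called at 6 h against 3 h and 9 across the groups. Lrat at 3 h was then 0.19, Reln at 6 h -0.07, Des 1.37, 0.80 and 1.02 at 3, 6 and 12 h, Col1a1 at 6 h 0.27 and Col1a2 at 6 h 0.10.

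Leaving out 1 library at a time gave 2 to 4 members called at 3 h against sham, 2 to 3 at 6 h against sham, 2 to 9 at 12 h against sham, 0 to 1 at 6 h against 3 h, 0 to 4 at 12 h against 6 h, 2 to 7 at 12 h against 3 h and 3 to 9 across the groups. Over all tested genes these fits called 1764 to 2672, 3302 to 4900 and 2112 to 5263 against sham, in the same order. Between times they called 400 to 2111, 1853 to 4200 and 2820 to 5533, and across the groups 4710 to 7430. Without sham replicate 3, Des was 1.21, 0.80 and 1.02 at 3, 6 and 12 h, Reln at 6 h -0.07, Col1a1 at 6 h 0.27 and Col1a2 at 6 h 0.10. Without sham replicate 2, Lrat at 3 h was 0.01, and without sham replicate 1, Col3a1 at 3 h was -0.03. Without 3 h replicate 3, Lrat was 0.25 and Des 0.02 at 3 h, and without 3 h replicate 1 or 2, Col3a1 was -0.10. Without 6 h replicate 1, Lrat was 0.02 and Col1a2 0.01 at 6 h, and without 6 h replicate 2, Lrat was 0.04 and Reln -0.006. At the other end of these ranges, Lrat at 6 h was -0.61 without 6 h replicate 3, Des was -0.59, -1.0 and -0.78 at 3, 6 and 12 h without sham replicate 1, Col1a1 and Col1a2 at 6 h were -0.45 and -0.22 without it, and Col3a1 at 3 h was 0.45 without 3 h replicate 3.

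Same-numbered libraries did not pair (correlations of their deviations from -0.255 to 0.173). With the replicate block, Lrat at 12 h against sham (1.01, edgeR adjusted p = 0.0589) and Col3a1 at 12 h against 3 h (-0.89, edgeR adjusted p = 0.0706) were no longer called, so that 3 and 5 members were called in those comparisons, and Des at 3 h was 0.08.

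The depth limits Timp1 most, with 3 counts over the sham libraries.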
